A study of Mus musculus with 30 samples.

Results

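The genes described here are 9 G protein-coupled serotonin receptors, measured in ribosome-bound RNA from the 2 main classes of medium spiny neuron of the mouse nucleus accumbens. They are Htr1a, Htr1b, Htr1d, Htr1f, Htr2a, Htr2c, Htr4, Htr6 and Htr7, chosen by gene symbol out of 55335 genes in the count table, and all 9 had enough counts to be tested. The mice were females that carried RiboTag (RT), a Cre-dependent epitope tag on a ribosomal protein, together with D1-Cre or A2A-Cre. D1-Cre marks neurons that express the dopamine D1 receptor. A2A-Cre marks the class that expresses the adenosine A2A and dopamine D2 receptors, and its libraries are called D2 here. The 6 groups of 5 libraries were D1-Cre-RT Control, Resilient and Susceptible and A2A-Cre-RT Control, Resilient and Susceptible. Resilient and Susceptible mice had gone through chronic witness defeat stress (CWDS) and were assigned by their social interaction scores. Control mice are described by that word only, and no age is given. All animals of all groups carried RiboTag and a Cre driver, and tissue was collected 24 h after social interaction testing. Each library pooled punches from 4 mice with similar scores, so p-values measure the spread between pools and not between single mice.

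Serotonin reaches the accumbens through axons of raphe neurons, whose cell bodies lie in the brainstem. Receptors of the 5-HT1 family couple to Gi/o proteins and lower cyclic AMP, 5-HT2 receptors couple to Gq and activate phospholipase C, and 5-HT4, 5-HT6 and 5-HT7 couple to Gs and raise cyclic AMP. Medium spiny neurons are the GABA-releasing output cells of the accumbens, and serotonin receptors on them and on the fibres that reach them shape reward and mood-related behaviour.

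The libraries held 28996168 to 65882152 counts in genes. A library labelled D1 Susceptible replicate 1 stood apart, with 54.9% of its gene counts in the single feature Gm42418 and the lowest TMM-scaled total of all. D2 Susceptible replicates 1 and 2 had 15822 and 16525 genes with a count, against 19440 to 22375 in the other 28 libraries. Of the 6 genes used to check the class labels, Drd1, Pdyn and Tac1 were higher and Drd2, Adora2a and Penk lower in D1 libraries in each of the 3 conditions (edgeR adjusted p 0.0147 at most). Over a longer list of 7 D1 neuron markers, 5 were called higher in D1 in Control, 4 in Resilient and 6 in Susceptible, and 0 lower. All 5 D2 neuron markers tested were called lower in each condition. The D2 libraries were not uniform, and 1 of them reached D1 levels of Drd1 and Tac1. CPM (counts scaled to a common library total) used TMM-scaled library sizes throughout. Drd1 reached 247 CPM in D2 Control replicate 5 and 414 CPM in D2 Resilient replicate 5, against 50.3 to 147 CPM in the other 13 D2 libraries. The lowest D1 libraries were at 377 CPM in Susceptible and 380.2 CPM in Control, below D2 Resilient replicate 5. Tac1 in that library was at 791.7 CPM, above the lowest D1 Resilient library at 790.002 CPM. In bulk RNA of this kind, fewer cells of a type and less RNA per cell cannot be told apart.

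Levels of different genes were set side by side per length, as CPM per kilobase of merged exons. In D1 Control libraries Htr2c was highest at 19.2 ± 2.3 (SD, n = 5). Htr1b followed at 10.3 ± 1.7, Htr2a at 4.96 ± 1.3, Htr1d at 4.38 ± 0.42, Htr6 at 3.24 ± 0.57 and Htr1a at 2.98 ± 0.77 CPM per kb. Htr7, Htr4 and Htr1f were lowest, at 1.17 ± 0.15, 1.02 ± 0.059 and 0.883 ± 0.098 CPM per kb. The libraries did not overlap between Htr2c and Htr1b, between Htr1b and Htr2a, or between Htr1a and Htr7. The other neighbours in this order overlapped.

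D2 Control libraries had the same first 5 receptors in the same order. Htr2c was at 21.7 ± 3.1, Htr1b at 11.5 ± 1.7, Htr2a at 6.68 ± 0.89, Htr1d at 5.93 ± 0.46 and Htr6 at 2.92 ± 0.58 CPM per kb. Htr1a stood lower in the order, after Htr7. The D2 levels per length were 1.79 ± 0.58 for Htr7, 1.14 ± 0.37 for Htr1a, 0.945 ± 0.13 for Htr4 and 0.459 ± 0.070 CPM per kb for Htr1f. Htr2c was first and Htr1b second in all 6 groups, and in D2 Susceptible the libraries of these 2 genes overlapped. Htr2c has several transcripts, and with its longest transcript as the length its level was 36.7 in D1 Control and 41.5 CPM per kb in D2 Control.

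**Figure D1:**
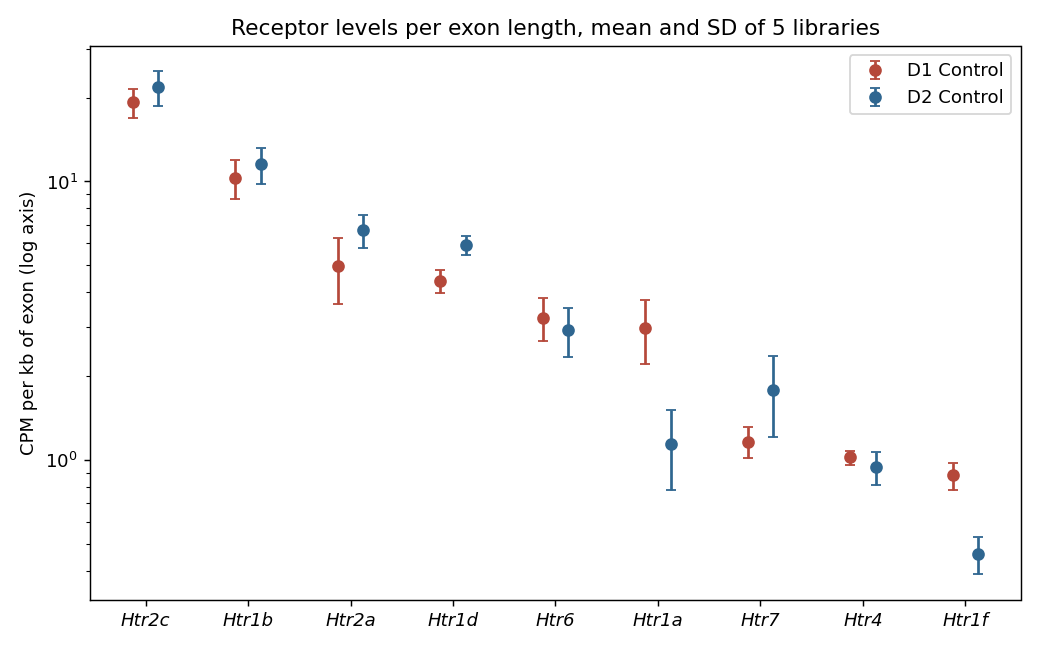
Level of each receptor gene in CPM per kilobase of merged exons (log axis) in D1 Control and D2 Control, where points are means and bars are SD of 5 libraries. Htr2c lies highest at 19.2 and 21.7, and Htr1a and Htr1f are the genes whose D1 point lies well above the D2 point.

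As a share of the summed level per length of the 9 genes, the Gq-coupled pair Htr2a and Htr2c held 50.1% ± 2.68 (SD, n = 5) in D1 Control and 53.5% ± 1.51 in D2 Control. The 4 Gi-coupled receptors held 38.5% ± 1.80 and 36.0% ± 1.79. The 3 Gs-coupled receptors held 11.4% ± 2.15 and 10.6% ± 1.03. Htr2c alone was 39.9% ± 2.77 of the sum in D1 Control and 40.8% ± 1.11 in D2 Control. Htr1a was 6.17% ± 1.35 of the sum in D1 Control and 2.20% ± 0.841 in D2 Control, with no overlap between libraries. The ranges of the libraries overlapped for each of the other shares named here. All these shares rest on merged exon length, which for Htr2c is 9328 bases against 4883 bases for its longest transcript. With the longest transcript as the length, the shares of Htr2c and of the Gq-coupled pair would be higher. Those shares were not computed, and the SD does not cover the choice of length.

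The first comparison set D1 against D2 neurons in each condition. Htr1a, a Gi-coupled receptor that also serves as the autoreceptor of raphe neurons, was higher in D1 libraries in all 3 conditions, by 2.60-fold to 2.91-fold. Htr1d, a Gi-coupled receptor best known from nerve terminals, was lower in D1 in Control and Susceptible libraries. Htr1f, also Gi-coupled, was higher in D1 in Susceptible libraries. In Control, 1 of the 9 genes was called higher and 1 lower, where 8.30% of all 19368 genes tested were called at an edgeR adjusted p under 0.05 (3.51% higher and 4.80% lower). In Resilient, 1 was called higher and 0 lower, against 6.65% of all genes (2.75% higher and 3.90% lower). In Susceptible, 2 were called higher and 1 lower, against 23.9% of all genes (10.5% higher and 13.4% lower). That last background moved with the fit, from 4621 genes to 925 when only the 2 Susceptible groups entered it and to 2151 without D2 Susceptible replicates 1 and 2, where 1 and 3 receptor genes were called. The median log2 difference (D1 minus D2) of the 9 genes was -0.16 in Control, -0.21 in Resilient and -0.08 in Susceptible, and that of all genes tested was within 0.02 of zero in each.

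**Figure D2:**
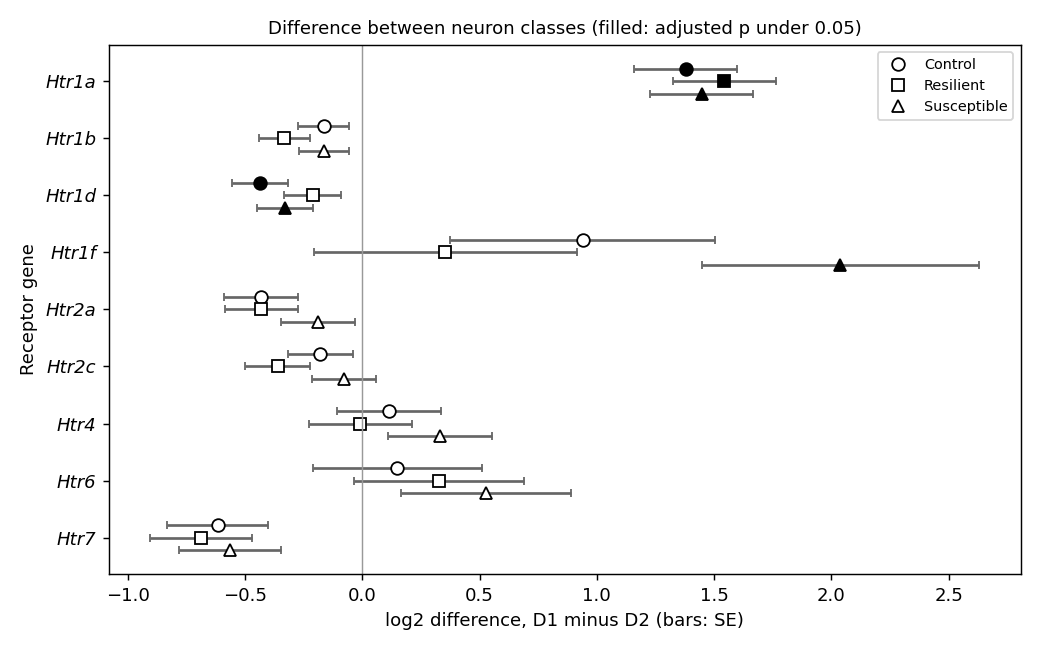
Log2 difference, D1 minus D2, of each receptor gene in Control (circles), Resilient (squares) and Susceptible (triangles) libraries, with bars for the SE and filled symbols for an edgeR adjusted p under 0.05. The 3 Htr1a points lie at 1.38, 1.54 and 1.45, and all points of Htr1b, Htr1d, Htr2a, Htr2c and Htr7 lie below 0.

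Htr1a (chr13:105443639-105448122, plus strand, GRCm38, a single exon) was measured at 10.97, 10.6, 19.1, 12.5 and 13.7 CPM in the D1 Control libraries. It was at 4.08, 4.63, 4.49, 4.42 and 8.04 CPM in the D2 Control libraries. In Resilient it was at 16.1, 13.2, 15.1, 14.2 and 10.6 CPM in D1 and at 2.79, 5.77, 5.61, 4.03 and 5.55 CPM in D2. In each of these conditions every D1 library lay above every D2 library. In Susceptible, the D1 values were 7.61, 12.6, 11.8, 9.24 and 15.1 CPM and the D2 values 4.83, 3.37, 4.46, 4.69 and 3.44 CPM, again with no overlap.

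The log2 difference of Htr1a was 1.38 in Control (SE 0.22, edgeR adjusted p 7.34e-05), 1.54 in Resilient (SE 0.22, edgeR adjusted p 1.39e-05) and 1.45 in Susceptible (SE 0.22, edgeR adjusted p 2.59e-05). These differences in the 3 conditions rest on separate libraries, and the D1 change with stress did not differ from the D2 change past the threshold in any of the 3 tests of that difference. Htr1a was called in each condition under all 18 alternatives, among them the fit without the 4 libraries D2 Susceptible 1 and 2, D1 Susceptible 1 and D2 Resilient 5, and the fits that left out each library in turn. The lowest log2 difference under any of them was 1.22, in Control.

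Markers of other cell types differed between the same libraries. The 3 glutamatergic neuron markers Slc17a7, Slc17a6 and Neurod6 were all higher in D1 than in D2 in Control, with log2 differences of 0.95 to 1.39 (edgeR adjusted p 0.0141 at most). In Resilient 2 of the 3 were called higher, and in Susceptible all 3. Their summed level in Control was 594 to 776 CPM for D1 and 283 to 432 CPM for D2. It was 484 to 694 and 130.3 to 412 CPM in Resilient, and 409 to 662 and 112 to 290.4 CPM in Susceptible. None of the 3 was at 0 in all libraries of a group. Across the 15 D1 libraries, Htr1a correlated with the summed level of these markers at r = 0.74, and across the 15 D2 libraries also at r = 0.74. These correlations, and the others with summed markers, used log2 values of both sides. These are descriptions over libraries that share a tissue, a scaling and, in part, a stress group. The part of these markers in the Htr1a difference was not tested.

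**Figure D3:**
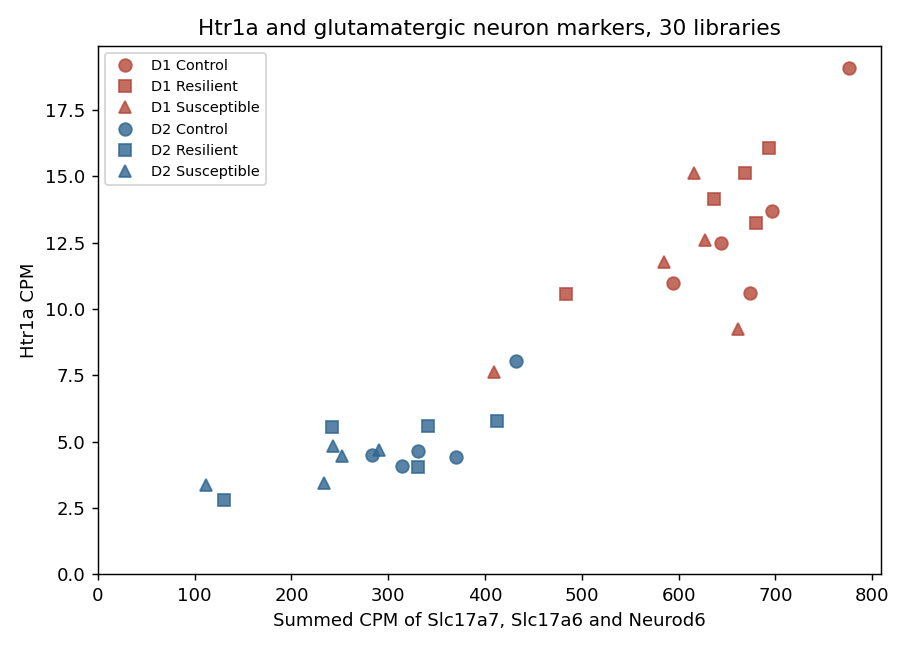
Htr1a in CPM (vertical axis) against the summed CPM of 3 glutamatergic neuron markers (horizontal axis) in each of the 30 libraries, coloured by class with a symbol for each stress group. D1 libraries lie at 409 to 776 CPM of markers and D2 libraries at 112 to 432, and Htr1a is higher where the markers are higher within each class.

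Other marker lists moved too. Of 5 GABAergic interneuron markers, 4 were called higher in D1 in Control, where their sum was 320 to 476 CPM against 91.5 to 279 CPM in D2, and Htr1a correlated with that sum at r = 0.12 across the D1 and 0.61 across the D2 libraries. All 4 endothelial markers were called lower in D1 in every condition, with Control sums of 11.1 to 24.6 CPM for D1 and 120 to 262 CPM for D2. Markers of serotonergic neurons were near the limit of detection. Fev was at 0 in all 30 libraries, and the summed level of Tph2, Slc6a4 and Fev was at most 1.12 CPM in any library. Of 4 astrocyte markers, 3 were called lower in D1 in Control and all 4 in Resilient and in Susceptible, with Control sums of 27.4 to 125 CPM for D1 and 88.2 to 139 CPM for D2. Of 4 oligodendrocyte markers, 0, 1 and 3 were called lower in D1 in Control, Resilient and Susceptible, with Susceptible sums of 418 to 588 CPM for D1 and 724 to 1825 CPM for D2. Of 3 cholinergic interneuron markers, 2 were called higher in D1 in Susceptible, where the sums were 3.46 to 8.33 CPM for D1 and 1.32 to 3.11 CPM for D2. Of 4 choroid plexus markers tested, 1 was called lower in D1 in Control, 1 in Resilient and 0 in Susceptible. The sum of all 5 markers in that list was 26.6 to 40.1 CPM for D1 and 40.9 to 55.2 CPM for D2 in Control. It was 27.7 to 37.9 and 38.3 to 83.5 CPM in Resilient and overlapped in Susceptible. Htr2c correlated with that sum at r = -0.04 across the D1 and 0.24 across the D2 libraries. The part of these interneuron, endothelial, glial and choroid plexus markers in the receptor differences was not tested.

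Htr1d (chr4:136423524-136444398, plus strand) was at 14.8, 13.6, 12.9, 13.0 and 15.997 CPM in D1 Control and at 21.0, 18.9, 18.8, 19.3 and 16.9 CPM in D2 Control. All D1 Control libraries lay below all D2 Control libraries, and the log2 difference was -0.44 (SE 0.12, edgeR adjusted p 0.0184). In Resilient the means were 13.9 and 16.1 CPM, the libraries overlapped, and the difference of -0.21 was not called (SE 0.12, edgeR adjusted p 0.455). In Susceptible the D1 libraries held 21.5, 15.7, 16.2, 16.3 and 17.1 CPM and the D2 libraries 20.2, 23.9, 24.0, 17.98 and 22.5 CPM. There the library D1 Susceptible 1 overlapped the D2 libraries, and the log2 difference was -0.33 (SE 0.12, edgeR adjusted p 0.0443). The Htr1d call in Control was lost without D1 Control replicate 3, D1 Control replicate 4 or D2 Control replicate 1 (adjusted p 0.0570 to 0.0622) and held in the other 15 of 18 alternatives (adjusted p down to 0.000389), and in Susceptible it held in 6 of 18 alternatives, with adjusted p from 0.00777 to 0.211 over them. Htr1d correlated with the summed glutamatergic markers at r = -0.69 across the D1 and -0.48 across the D2 libraries. With the summed endothelial markers it correlated at r = 0.59 across the D1 and 0.49 across the D2 libraries. The part of those markers was not tested.

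Htr1f (chr16:64924729-65105854, minus strand) was the lowest of the 9 genes per length in all 6 groups. In Control it was at 2.08, 2.25, 2.64, 2.01 and 2.40 CPM in D1 and at 1.27, 1.14, 1.07, 0.987 and 1.45 CPM in D2. The Control libraries did not overlap, but the log2 difference of 0.94 was not called (SE 0.56, edgeR adjusted p 0.390), and 2 of 18 alternatives called it (adjusted p 0.0109 to 0.573). In Resilient the 2 classes overlapped, and they differed by 0.35 on the log2 scale (SE 0.56, edgeR adjusted p 0.923).

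In Susceptible libraries Htr1f was at 1.93, 2.11, 1.81, 1.42 and 1.89 CPM in D1. The D2 Susceptible libraries held 7, 0, 59, 8 and 61 counts of Htr1f, or 0.150, 0, 1.04, 0.123 and 0.897 CPM. A count of 0 in D2 Susceptible replicate 2 allows up to 3 counts, which is 0.0543 CPM there, and such floors cover counting error only. The D2 values thus fell into a low set of 3 libraries and a pair near 1 CPM, and all 5 lay below all 5 D1 values. The log2 difference was 2.04 (SE 0.59, edgeR adjusted p 0.0125). It was 1.41 when those 4 libraries were left out, with an edgeR adjusted p of 0.0502, and it was 2.05 with an adjusted p of 0.239 when only the 2 groups compared entered the fit. Over all 18 alternatives the adjusted p ran from 0.000926 to 0.239, and 16 of them kept the call.

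Promoter windows are shown for these 3 Gi-coupled genes because they are the receptors whose level was called different between the classes. The windows come from RefSeq (GRCm38.p6), in which 8 of the 9 genes had an entry. Htr1d had 2 entries, and the one shown is the nearer to its GENCODE start. Each window is set on the RefSeq start, and it is printed 5′ to 3′ on the gene's strand only up to the base before the GENCODE start. The GENCODE start lies 54 bases upstream of the RefSeq start for Htr1a, 70 bases upstream for Htr1f and at the same base for Htr1d, so 196, 180 and 250 bases are printed in that order. The stretches are chr13:105443443-105443638 for Htr1a, chr4:136423274-136423523 for Htr1d and chr16:65105855-65106034 (minus strand) for Htr1f. Capitals mark matches to the GC box GGGCGG or the CCAAT box CCAAT on either strand.
Htr1a: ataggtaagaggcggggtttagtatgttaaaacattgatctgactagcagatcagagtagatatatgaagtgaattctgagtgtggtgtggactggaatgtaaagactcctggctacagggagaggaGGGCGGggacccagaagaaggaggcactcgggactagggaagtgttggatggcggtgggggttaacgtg
Htr1d: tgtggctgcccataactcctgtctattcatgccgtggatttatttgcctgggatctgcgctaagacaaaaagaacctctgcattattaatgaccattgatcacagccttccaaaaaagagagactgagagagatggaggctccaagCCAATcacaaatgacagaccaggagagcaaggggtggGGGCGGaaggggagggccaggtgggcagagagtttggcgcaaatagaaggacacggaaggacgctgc
Htr1f: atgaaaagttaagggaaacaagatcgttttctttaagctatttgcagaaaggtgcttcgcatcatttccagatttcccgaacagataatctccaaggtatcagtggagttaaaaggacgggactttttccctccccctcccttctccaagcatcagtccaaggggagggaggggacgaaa
In the whole window, from 250 bases before to 50 bases after the RefSeq start, each of the 3 genes held 1 GC box, and that of Htr1f lay past its GENCODE start, in bases that are not printed. GC boxes occurred in 35.9% of 32544 RefSeq promoter windows of this length. Htr1d also held 1 CCAAT box, which 37.4% of all windows had. The TATA box TATAAA (13.6% of all windows) and the cyclic AMP response element TGACGTCA (1.80% of all windows) were not found in any of the 3 windows on either strand. The GC content was 52.3% for Htr1a, 52.0% for Htr1d and 53.0% for Htr1f, beside a median of 53.0% over all windows.

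Htr1b (chr9:81628291-81633828, minus strand), a Gi-coupled receptor of axon terminals, was not called in any class comparison. In Resilient its 5 D1 libraries (51.5, 44.1, 41.7, 48.0 and 43.7 CPM) all lay below its 5 D2 libraries (64.3, 56.4, 53.8, 53.6 and 60.2 CPM). The Resilient log2 difference was -0.33 (SE 0.11, edgeR adjusted p 0.0608), and 7 of 18 alternatives called it, with adjusted p from 0.00588 to 0.187. In Control the means were 48.6 and 54.4 CPM and in Susceptible 54.5 and 61.0 CPM, and the libraries overlapped in both. An exon of Htr1b overlaps the gene D430036J16Rik on the opposite strand. That gene had group means of 5.65 to 6.51 CPM, and the strand setting of the counting is not given in the sources used here, so reads of the shared stretch cannot be assigned between them.

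The Gq-coupled receptors were not called between classes. Htr2a (chr14:74640840-74709494, plus strand), the target of classic hallucinogens, was at 17.9, 24.2, 29.2, 29.5 and 38.2 CPM in D1 Control and at 36.2, 43.3, 36.3, 30.4 and 41.0 CPM in D2 Control. One D1 library, replicate 5, lay among the D2 values. The log2 difference was -0.43 in Control (SE 0.16, edgeR adjusted p 0.0874) and also -0.43 in Resilient (SE 0.16, edgeR adjusted p 0.111), and it was -0.19 in Susceptible (SE 0.16, edgeR adjusted p 0.403). Of 18 alternatives, 5 called Htr2a in Control and 3 in Resilient, all lower in D1, with adjusted p from 0.0146 to 0.235 and from 0.00555 to 0.240.

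Htr2c (chrX:146962513-147197277, plus strand), whose RNA is edited in a loop that contacts G proteins, had the most counts of the 9 genes. It was at 156, 161, 196, 206 and 178 CPM in D1 Control and 223, 225, 222, 160 and 185 CPM in D2 Control, and the groups overlapped. In Resilient the D1 libraries held 179, 185, 189, 163 and 156 CPM and the D2 libraries 279, 226, 215, 199 and 200 CPM, with no overlap. That difference of -0.36 was not called (SE 0.14, edgeR adjusted p 0.140), and 4 of 18 alternatives called it (adjusted p 0.0106 to 0.446). The Control and Susceptible differences were -0.18 (SE 0.14, edgeR adjusted p 0.557) and -0.08 (SE 0.14, edgeR adjusted p 0.722).

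Among the Gs-coupled receptors, Htr7 (chr19:35958734-36057507, minus strand) showed the most difference between classes without a call. It was at 3.54, 4.36, 4.45, 3.34 and 4.13 CPM in D1 Control and at 8.71, 7.40, 5.54, 3.80 and 4.93 CPM in D2 Control. D2 Control replicate 4 lay among the D1 values. In Resilient the D1 libraries, at 2.75 to 4.32 CPM, all lay below the D2 libraries, at 5.41 to 6.502 CPM. The log2 difference was -0.62 in Control (SE 0.22, edgeR adjusted p 0.0758), -0.69 in Resilient (SE 0.22, edgeR adjusted p 0.0507) and -0.56 in Susceptible (SE 0.22, edgeR adjusted p 0.0573). In 5, 6 and 6 of 18 alternatives, in that order, Htr7 was called lower in D1. The adjusted p ran from 0.000517 to 0.263, from 0.00562 to 0.143 and from 0.000626 to 0.288.

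Htr4 (chr18:62324204-62496577, plus strand) and Htr6 (chr4:139061108-139075570, minus strand), a receptor enriched in the striatum, were not called and overlapped between classes in all 3 conditions. Htr4 group means were 4.61 to 6.19 CPM in D1 and 4.63 to 4.84 CPM in D2. Its highest value, 10.96 CPM, was in D1 Susceptible replicate 1, from 108 counts. Htr6 means were 7.58 to 8.70 CPM in D1 and 6.04 to 6.84 CPM in D2. In D2 Susceptible replicate 2 Htr6 was at 0.398 CPM, from 22 counts, against 4.68 to 9.04 CPM in the other 4 libraries of its group. Though not called, Htr4 correlated with the summed glutamatergic markers at r = -0.50 across the D1 and -0.73 across the D2 libraries. For Htr6 these values were 0.13 and 0.59. The part of those markers was not tested.

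**Figure D4:**
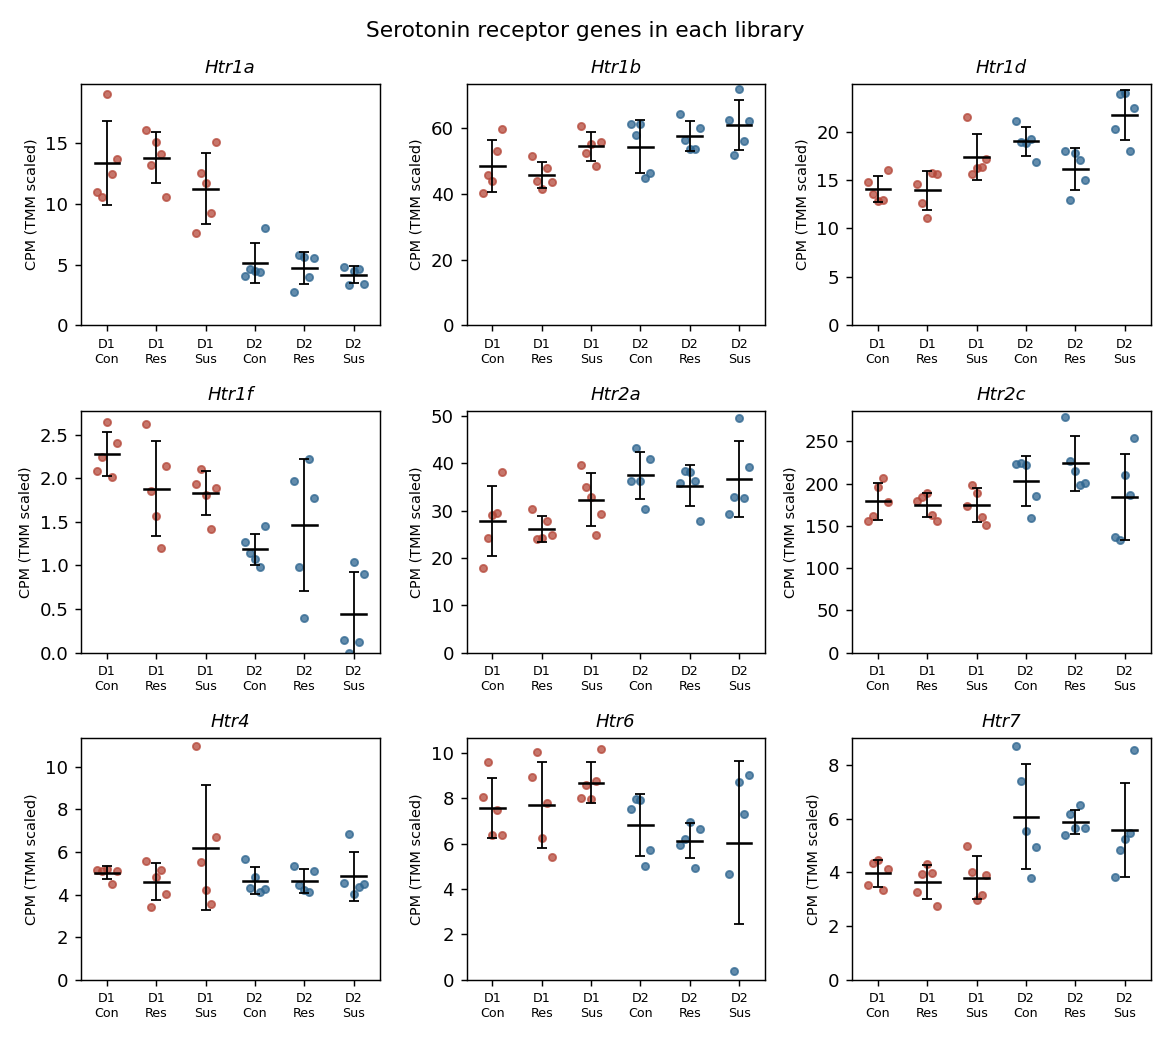
CPM (TMM scaled) of each receptor gene in every library, by class and condition (Con, Control; Res, Resilient; Sus, Susceptible), with points for libraries, a line for the mean and bars for SD of 5 libraries. Htr1a is higher in D1 than in D2 in each condition, and the D2 Susceptible libraries of Htr1f and Htr6 include values of 0 and 0.398 CPM.

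By the count of genes whose libraries did not overlap between classes, 3 of the 9 genes were apart in Control (Htr1a, Htr1d and Htr1f), where 11.7% of all genes were. In Resilient 4 were apart (Htr1a, Htr1b, Htr2c and Htr7), against 9.70% of all genes. In Susceptible 2 were apart (Htr1a and Htr1f), against 8.92% of all genes.

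The second comparison asked which receptors differed with stress within a class. None of the 9 genes was called by edgeR in any of the 6 stress comparisons, and their libraries overlapped in each. In D1 1.54%, 0.888% and 1.12% of all genes had libraries that did not overlap (Resilient against Control, Susceptible against Control and Susceptible against Resilient), and in D2 1.31%, 1.31% and 1.50%. Of all genes tested, 0% were called in the 3 D1 comparisons and between D2 Resilient and D2 Control, 0.00516% between D2 Susceptible and D2 Control, and 0.0516% between D2 Susceptible and D2 Resilient. The last 2 shares, 1 and 10 genes, moved with single libraries. They were 819 and 1946 genes without D2 Susceptible replicate 3, 177 and 1570 without replicate 5, 8 and 404 without replicate 4, and 0 and 0 without replicate 1. At an unadjusted p under 0.05, the number of receptor genes was 0 for Resilient against Control in either class, 1 for Susceptible against Control in either class, 2 for Susceptible against Resilient in D1 and 3 in D2. The shares of all genes at that level were 2.60%, 2.40% and 3.49% in D1 for Resilient against Control, Susceptible against Control and Susceptible against Resilient, and 4.20%, 15.7% and 19.1% in D2. DESeq2 called 2 of the 9 genes, Htr1d and Htr1f, between D2 Susceptible and D2 Resilient and none in the other 5 comparisons. Of all genes, DESeq2 called 976 in that comparison and 255 between D2 Susceptible and D2 Control.

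**Figure D5:**
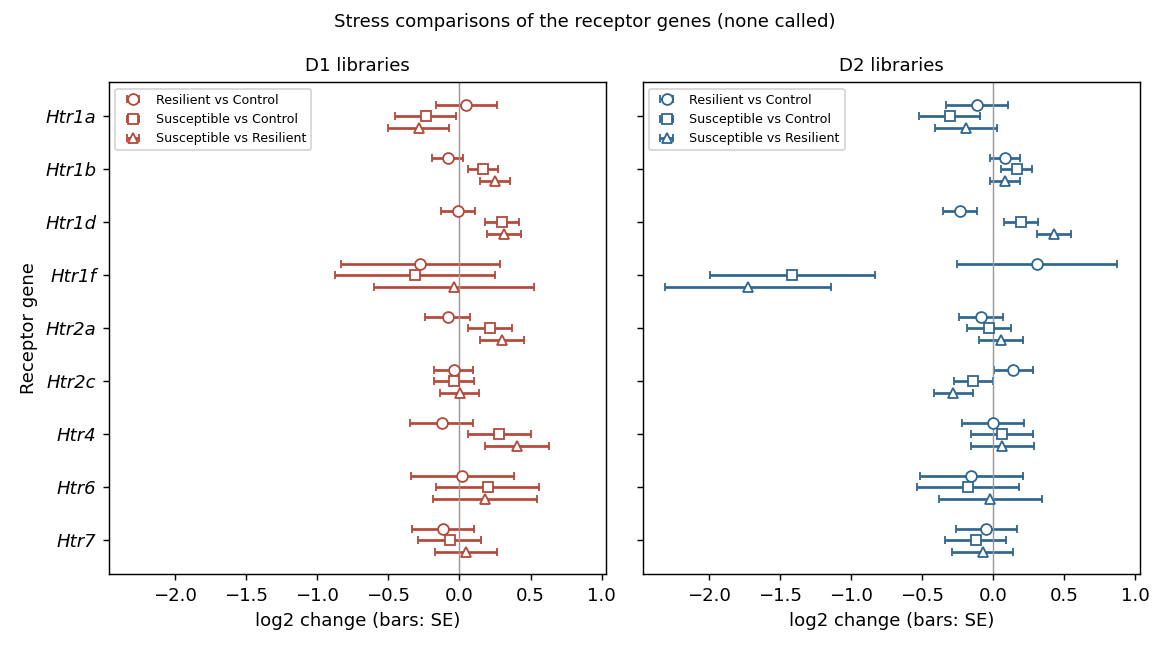
Log2 change of each receptor gene in the 3 stress comparisons (circles, Resilient against Control; squares, Susceptible against Control; triangles, Susceptible against Resilient) in D1 libraries (left) and D2 libraries (right), with bars for the SE. The points farthest from 0 are those of Htr1f in D2, at -1.41 and -1.72, and no point reached an edgeR adjusted p under 0.05.

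Htr1d had the smallest p of the stress comparisons. In D2 it was at 17.98, 12.9, 17.8, 17.0 and 14.96 CPM in Resilient and 20.2, 23.9, 24.0, 17.98 and 22.5 CPM in Susceptible libraries. The highest Resilient and the lowest Susceptible library met at 17.98 CPM. The log2 difference, Susceptible minus Resilient, was 0.43 (SE 0.12, unadjusted p 0.00115, edgeR adjusted p 0.0754). In 4 of 18 alternatives it was called, with adjusted p from 0.0179 to 0.748, and these were DESeq2 and the fits without D2 Susceptible replicate 3, 4 or 5, in which many more of all genes were called too (404 to 1946 against 10). In D1 the same difference was 0.31 (SE 0.12, unadjusted p 0.0149, edgeR adjusted p 1.00), and Susceptible minus Control was 0.30 (SE 0.12, unadjusted p 0.0179, edgeR adjusted p 1.00). The D1 and D2 changes between Susceptible and Resilient differed by -0.12 (SE 0.17, edgeR adjusted p 0.812).

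Htr1f gave the difference farthest from 0, between D2 Susceptible and D2 Resilient, and it was not called. The Resilient values were 1.97, 0.982, 0.398, 2.22 and 1.77 CPM, which overlap the Susceptible values of 0.150, 0, 1.04, 0.123 and 0.897 CPM. The log2 difference was -1.72 (SE 0.58, unadjusted p 0.00595, edgeR adjusted p 0.110), and against D2 Control it was -1.41 (SE 0.58, edgeR adjusted p 0.241). Without D2 Susceptible replicates 1 and 2, the libraries with few detected genes, the difference from Resilient was -1.11 with an edgeR adjusted p of 0.855. Over 18 alternatives its adjusted p ran from 0.0205 to 0.915, and 3 called it. In D1 Htr1f differed by -0.04 between Susceptible and Resilient (SE 0.56, edgeR adjusted p 1.00), and the D1 change minus the D2 change was 1.68 (SE 0.81, unadjusted p 0.0447, edgeR adjusted p 0.389).

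The other receptors gave smaller stress differences. Htr1b in D1 differed by 0.25 on the log2 scale, Susceptible minus Resilient (SE 0.11, unadjusted p 0.0278, edgeR adjusted p 1.00). Htr2c in D2 differed by -0.28, Susceptible minus Resilient (SE 0.14, unadjusted p 0.0496, edgeR adjusted p 0.261). That difference ran from -0.43 to 0.03 over 18 alternatives, and 1 called it. The D2 Susceptible libraries of Htr2c held 136, 133, 211, 186 and 255 CPM, and the 2 lowest were replicates 1 and 2. Htr1a, Htr2a, Htr4, Htr6 and Htr7 had log2 differences from -0.31 to 0.40 over the 6 comparisons. None of the 9 genes was called in the 3 tests of a difference between the D1 and D2 changes, in which 0% of all genes were called. At an unadjusted p under 0.05 these tests gave 0, 0 and 1 receptor genes by edgeR (for Resilient against Control, Susceptible against Control and Susceptible against Resilient), beside 4.99%, 7.79% and 12.4% of all genes, and DESeq2 and voom called none.

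The remaining serotonin genes were read from lists of related genes. Of 5 other serotonin receptor genes, Htr3a, Htr5a and Htr5b were tested, and Htr2b and Htr3b had too few counts. None of the 3 was called in Control or Resilient. Htr3a, a subunit of the serotonin-gated ion channel, was higher in D1 in Susceptible by 1.75 on the log2 scale (SE 0.52, edgeR adjusted p 0.0150). There 10.5% of all genes and all 5 GABAergic interneuron markers were called higher in D1. The summed level of the 5 receptor genes in Susceptible was 11.7 to 13.6 CPM for D1 and 3.59 to 14.3 CPM for D2. The part of the interneuron markers in the Htr3a difference was not tested. Of 9 genes of serotonin synthesis, transport and breakdown, 8 were tested and 1, Ddc, was lower in D1 in Control. Ddc encodes the decarboxylase shared by serotonin and dopamine synthesis. In Control its mean was 12.6 ± 2.25 CPM for D1 and 24.1 ± 4.20 CPM for D2 (SD, n = 5), which differ by -0.93 on the log2 scale (SE 0.15, edgeR adjusted p 0.000112). Ddc was also lower in D1 in Resilient (-0.77, edgeR adjusted p 0.000944) and Susceptible (-1.07, edgeR adjusted p 1.36e-05), where 2 more genes of that list were called higher. Of all genes tested, 4.80%, 3.90% and 13.4% were called lower in D1 in Control, Resilient and Susceptible, and 10.5% higher in Susceptible.

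Of 10 G protein alpha subunit genes, Gnai1 was higher and Gnai2 lower in D1 in Control, and both encode Gi subunits. The Control mean of Gnai1 was 269.7 ± 38.7 CPM for D1 and 158 ± 22.9 CPM for D2 (SD, n = 5), which differ by 0.77 on the log2 scale (SE 0.11, edgeR adjusted p 2.71e-05). It was also higher in D1 in Resilient by 0.54 (edgeR adjusted p 0.00167) and in Susceptible by 0.90 (edgeR adjusted p 2.06e-06). Gnai2 differed by -0.29 in Control (SE 0.08, edgeR adjusted p 0.0179). The Gnai2 call was lost with no count filter, in a fit of these groups only, and without D1 Control replicate 3, 4 or 5 or D2 Control replicate 2 or 4 (adjusted p up to 0.0843). In Resilient Gnai1 alone of the 10 was called, and in Susceptible 2 were called higher and 3 lower. Of all genes tested, 8.30%, 6.65% and 23.9% were called in Control, Resilient and Susceptible.

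Of 13 receptor partners, arrestins, effectors and RNA editing genes, 4 were higher in D1 in Control and 0 lower. They were Plcb4, a phospholipase C that Gq activates (log2 difference 1.11, edgeR adjusted p 0.000459), Adarb2, a brain relative of the editing enzymes (0.95, edgeR adjusted p 0.000159), Grk3, a receptor kinase (0.89, edgeR adjusted p 0.000334), and Mpdz, a scaffold that binds the tail of the 5-HT2C receptor (0.70, edgeR adjusted p 0.0177). The Mpdz call was lost without D1 Control replicate 3 or D2 Control replicate 1 or 3 (adjusted p up to 0.0715), and in Resilient its difference was 0.08 (SE 0.19, edgeR adjusted p 0.966). In Resilient 4 of the 13 were called higher, among them Grk3 and Adarb2 but not Plcb4 or Mpdz. In Susceptible 7 were called higher, with 0 lower in either condition. Of all genes tested, 3.51%, 2.75% and 10.5% were called higher in Control, Resilient and Susceptible. The number of all genes called in Susceptible fell from 4621 to 925 in a fit of those groups only. None of the genes of these lists was called by edgeR in any stress comparison or in any difference between the D1 and D2 changes.

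For each receptor, the genes whose log2 CPM ran most like it across the 30 libraries were ranked by Pearson's r, as a description over libraries that share class and condition. For Htr1a they were Syt13 (r = 0.96), Cdk14 (0.96) and Gng2 (0.96), and r stayed at 0.74 or above for each of them within the 15 D1 and within the 15 D2 libraries. Htr2c ran most like Ppp2r2a (0.92), Gucy1b1 (0.91) and Tusc3 (0.89), with r of 0.68 or above within either class. For Htr1b the genes were Atf6, Pde10a and Pxdn (0.78 to 0.79), and for Htr4 they were Grin2a, Lrrc7 and Tenm3 (0.78 to 0.83). Jcad and Utrn were among the 3 genes most like both Htr1d and Htr2a, joined by Mtcl1 for Htr1d and Galnt13 for Htr2a (0.76 to 0.81). For Htr1d, r was 0.68 to 0.84 within D1 and 0.49 to 0.75 within D2. For Htr2a with Galnt13 it was 0.91 within D1 but 0.14 within D2. With Jcad and Utrn the Htr2a values were 0.65 to 0.67 within D1 and 0.56 to 0.61 within D2.

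For Htr1f and Htr6 the likeness came from the D2 libraries. Htr1f ran like Ube2j1 (0.90), Chrm4 (0.90) and Nlrp6 (0.88), with r of 0.88 to 0.90 within D2 and -0.37 to 0.18 within D1. Htr6 ran like Slc39a11, Gfpt2 and Ccdc159 (each 0.94), with r of 0.97 to 0.98 within D2 and 0.26 to 0.38 within D1. In D2 Susceptible replicate 2, with 16525 detected genes, Htr6 was at 0.398 CPM and Htr1f at 0. In D2 Susceptible replicate 1, with 15822 detected genes, Htr1f was at 0.150 CPM. The part of these libraries in the values of r within D2 was not tested. Htr7 ran most like Gucy1a1 (0.83), Cd248 (0.79) and Pltp (0.79), with r of 0.13 to 0.49 within D1 and 0.53 to 0.72 within D2. All 3 of those genes had lower values in D1 than in D2 in every condition, with log2 differences from -2.53 to -0.79.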

How the data were processed

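Ribosomes were immunoprecipitated through the HA tag from accumbens punches, and SMART-Seq v4 libraries were made from 10 ng of RNA each, per the labels' protocols. Reads were aligned with HISAT2 to GRCm38/mm10 and counted with HTSeq, per the submitters' processing notes. For the versions, annotation release and strand setting, nothing is stated by these notes or labels. The deposited values are raw counts per gene for 55335 genes, and the authors' table and the 30 files per library held identical values. Summary lines of reads without a gene (10.1% to 53.3% of a library) stayed out of sizes and tests.

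Symbols, coordinates and lengths came from GENCODE M21, which named 55154 genes. With filterByExpr (minimum count 10, minimum total 15) 19368 genes passed and 35967 did not. After TMM scaling, edgeR 4.0.16 (R 4.3.3, robust quasi-likelihood) was fitted in 1 model of 6 groups, with Benjamini-Hochberg adjustment over all genes in each of 12 comparisons at 0.05. The common dispersion was 0.172. A gene is said to be called where its adjusted p is under 0.05. Log2 CPM used a prior count of 2. The script was tested on simulated data. All receptor genes were named, with the genes of the related lists called in Control, the 2 with the smallest p elsewhere, and the 3 genes most like each receptor. Alternatives were DESeq2 1.42.0 (its test, and its size factors), no count filter, fits of the compared groups only, a replicate block, voom with quality weights (limma 3.58.1), leaving out each library in turn, and leaving out 2 or 4 libraries together. The members, lists and alternatives were chosen with earlier results of these data known. A marker of 1 list is not reported here. Figures were drawn with matplotlib 3.10.9.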

Additional observations from a re-analysis of the deposited data

Results flagged for a closer look

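Of 54 sets of 5 libraries (9 receptor genes in 6 groups), 5 held a library whose gap to its nearest neighbour was large against the range of its group. By chance about 1 in 20 such sets would. Htr1a was at 8.04 CPM in D2 Control replicate 5, against 4.08 to 4.63 CPM in the other 4 libraries. In that library Drd1 was at 247 CPM, the highest of the D2 Control group, and its summed glutamatergic markers, at 432 CPM, were also the highest of that group. The part of either in the Htr1a value was not tested. Htr1d was at 21.5 CPM in D1 Susceptible replicate 1, the library with 54.9% of its gene counts in Gm42418, against 15.7 to 17.1 CPM in the others. Htr2a was at 27.8 CPM in D2 Resilient replicate 5, against 35.8 to 38.5 CPM, in the library where Drd1 was at 414 CPM. Htr4 was at 4.51 CPM in D1 Control replicate 4, against 5.10 to 5.22 CPM, a narrow group. Htr4 was also at 6.83 CPM in D2 Susceptible replicate 2, against 4.02 to 4.53 CPM, in the library with 16525 detected genes.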

How the results depend on the processing

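Htr1a was the only receptor called in every class comparison under all alternatives run. The count of receptor genes called between classes in Control (2, beside 1608 of all genes) was 4 with DESeq2, 5 with voom, 4 without D2 Susceptible 1 and 2 and 4 without 4 libraries, where 2061, 5511, 3190 and 3308 of all genes were called. In Resilient (1, beside 1288) it was 3 with DESeq2, 3 with its size factors, 5 in a fit of these groups only, 5 with voom, 4 without D2 Susceptible 1 and 2 and 5 without 4 libraries, beside 1594, 1285, 2208, 3412, 2281 and 2573. In Susceptible (3, beside 4621) it was 1 in a fit of these groups only, beside 925. Between D2 Susceptible and D2 Resilient (0, beside 10) it was 2 with DESeq2, beside 976. Leaving out each library in turn gave 1 to 3 called in Control, 1 to 2 in Resilient, 2 to 4 in Susceptible and 0 to 3 between D2 Susceptible and D2 Resilient, beside 989 to 1783, 963 to 1434, 3518 to 6064 and 0 to 1946 of all genes. The 3 came without D2 Susceptible replicate 5, beside 1570. A receptor count that rose or fell with the count of all genes is not a result about the receptors. Several shifts were not of that kind and ran against the count of all genes. The Control count rose from 2 to 3 on dropping D1 Control replicate 5 or D2 Control replicate 4, beside 1103 and 1059. The Resilient count rose from 1 to 2 on dropping D1 Resilient replicate 1, beside 1056. The Susceptible count rose from 3 to 4 with voom, beside 3302, and on dropping D1 Susceptible replicate 1, beside 4164. It fell to 2 on dropping D2 Susceptible replicate 3 or 5, beside 6064 and 5705. With DESeq2 size factors the Resilient count rose from 1 to 3 while that of all genes went from 1288 to 1285. The genes added there, Htr1b and Htr7, were at edgeR adjusted p 0.0608 and 0.0507 in the main fit. The cause of these shifts was not tested.

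The sign turned for differences that were not called in the main fit, most of them near 0. With voom these were Htr6 in the Control class difference (-0.0242) and Htr4 in the Resilient class difference (0.0603). Voom also turned Htr1a between Resilient and Control in D2 (0.117) and Htr2c between Susceptible and Resilient in D2 (0.0275). That Htr2c difference was not near 0 in the main fit, at -0.28. It was called without D2 Susceptible replicate 5 (edgeR adjusted p 0.0419). Htr4 in the Resilient class difference was also 0.0136 with no filter, 0.00023 with the replicate block and 0.0256 without 4 libraries, and it ran from -0.0870 to 0.0830 when each library was left out. Leaving out 1 library in turn also turned the sign of Htr2c in the Susceptible class difference (-0.152 to 0.0671, above 0 without D2 Susceptible replicate 5) and of Htr1a between Resilient and Control in D1 (-0.0247 to 0.212) and in D2 (-0.195 to 0.107). With the longest transcript as length, Htr1d was 4.83 and 6.54 and Htr2c 36.7 and 41.5 CPM per kb in D1 and D2 Control.

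Same-numbered libraries did not deviate together (r from -0.08 to 0.08 over 45 pairs), so the numbers were not treated as pairs, and with the replicate block 2, 1 and 3 receptor genes were called in the Control, Resilient and Susceptible class comparisons. Depth limits Htr1f most, with 2432 counts over 30 libraries.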
